A study of Homo sapiens with 6 samples.

Results

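The nuclear RNA polymerase I, II and III subunit genes were described in MCF10DCIS.com cells with and without WDR5 silencing. Members were taken by gene symbol, as those that start with POLR1, POLR2 or POLR3 and a further letter, with CD3EAP, TWISTNB, ZNRD1 and CRCP. The rule used no expression values, but it was chosen with earlier results of these data known. The 34 described here were found among the 26334 genes of the count table: 6 specific to RNA polymerase I (Pol I), 2 shared by Pol I and Pol III, 5 shared by all 3 enzymes, 11 of Pol II and 10 of Pol III. The Pol II group included POLR2M, which encodes an associated subunit, and the POLR2J copies POLR2J2, POLR2J3 and POLR2J4, the last annotated as a pseudogene. Older symbols were kept as in the table, so that ZNRD1, TWISTNB and CD3EAP stand for the genes now called POLR1H, POLR1F and POLR1G.

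MCF10DCIS.com is a human breast cancer line that models basal ductal carcinoma in situ. Poly-A RNA was sequenced from 3 libraries of cells that carried the control construct pRSI-U6-shLuc-UbiC-TagRFP-2A-Puro (shLuc), and 3 libraries of cells that carried the silencing construct pRSI-U6-shWDR5-UbiC-TagRFP-2A-Puro (shWDR5). Cells of both groups had horse serum medium and puromycin selection, and no untransduced cells were analysed here, so vector, drug and hairpin expression were common to both groups. The labels name 1 shWDR5 vector, whereas the methods of the study describe a pool of shWDR5 hairpins for infection of this line, and which hairpins these libraries carry was not stated. The question addressed was how silencing of WDR5, a subunit of histone H3 lysine methyltransferase complexes, moved the transcript levels of the polymerase subunits.

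Pol I transcribes the ribosomal RNA precursor, Pol II transcribes messenger and many small nuclear RNAs, and Pol III transcribes transfer RNAs, 5S ribosomal RNA and other short RNAs. Each enzyme has its own pair of large catalytic subunits, an assembly platform, a stalk and a set of small subunits common to all of them. Some peripheral subunits of Pol I and Pol III are built in where Pol II uses separate factors. A growing tumour cell depends on Pol I and Pol III for ribosomes and transfer RNA. Levels below are RPKM (reads per kilobase of gene model, relative to library size scaled by the trimmed mean of M-values), and differences are log2 fold changes of shWDR5 over shLuc with standard error (SE). A gene was called when its adjusted p, from edgeR's quasi-likelihood test with Benjamini-Hochberg adjustment over all genes tested, was under 0.05. The labels do not say whether the 3 libraries of a group came from separate cultures, and the p-values measure the spread between libraries, which may be technical.

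WDR5 itself was read at 16.5, 15.2 and 16.1 RPKM in the shLuc libraries and at 7.34, 7.65 and 6.52 RPKM in the shWDR5 libraries. Its log2 fold change was -1.15 (SE 0.0737, adjusted p = 8.67e-07, edgeR). The groups did not overlap, in the direction of the labels. Library totals lay between 38218108 and 57640167 counts, and in each group replicate 1 stood farther from the other 2 libraries than these did from each other. All 7 breast epithelial markers exceeded 1 RPKM in every library, and their summed level was 2390 to 2470 RPKM in shLuc and 3780 to 4210 RPKM in shWDR5. KRT17 and KRT5 made up most of this sum and rose, with KRT14 and TP63, while CDH1 (log2 fold change -1.03) and EPCAM (-0.33) fell and ITGA6 was not called (0.05). The summed level of 4 fibroblast markers was 3.65 to 3.99 RPKM in shLuc and 2.51 to 3.01 RPKM in shWDR5, with LUM at 0 in all libraries. That of 4 blood markers was 0.814 to 1.07 against 0.427 to 0.475 RPKM, with CD3E and HBB at 0. The 3 endothelial markers summed to 1.72 to 1.79 against 1.05 to 1.19 RPKM, and ESR1 and PGR, the luminal hormone receptors, together stayed under 0.59 RPKM. The sums moved with the groups, except that of the luminal receptors (0.483 to 0.551 RPKM in shLuc and 0.421 to 0.588 RPKM in shWDR5). The part of these sums in the results below was not tested. In bulk libraries, a change in all cells and a change in a fraction of them cannot be told apart.

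Promoter sequence is shown for the largest subunit of Pol II, the largest subunit of Pol III and the shared assembly subunit POLR1C. These genes were chosen for their changes, described in detail below: POLR2A and POLR1C rose, and POLR3A fell. Each line holds the 250 bases before the transcription start, on the gene's strand, from RefSeq on GRCh38.p14. The windows are chr17:7484116-7484365 on the plus strand for POLR2A, chr6:43516839-43517088 on the plus strand for POLR1C and chr10:78029516-78029765 on the minus strand for POLR3A. Capitals mark the E-box CACGTG, the ETS-type motif CCGGAAG and the GC-box GGGCGG, searched on both strands; TATAAA was searched as well.
POLR2A: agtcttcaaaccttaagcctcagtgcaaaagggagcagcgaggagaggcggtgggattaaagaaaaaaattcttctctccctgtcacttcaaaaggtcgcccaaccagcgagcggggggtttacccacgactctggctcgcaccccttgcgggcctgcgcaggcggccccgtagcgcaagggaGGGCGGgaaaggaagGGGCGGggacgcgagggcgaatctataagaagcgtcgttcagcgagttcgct
POLR1C: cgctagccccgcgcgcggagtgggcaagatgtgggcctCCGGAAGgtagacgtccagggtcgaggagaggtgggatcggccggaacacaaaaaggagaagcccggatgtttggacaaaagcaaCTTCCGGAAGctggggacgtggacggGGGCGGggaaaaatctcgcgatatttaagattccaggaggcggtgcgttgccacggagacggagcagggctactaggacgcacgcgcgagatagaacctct
POLR3A: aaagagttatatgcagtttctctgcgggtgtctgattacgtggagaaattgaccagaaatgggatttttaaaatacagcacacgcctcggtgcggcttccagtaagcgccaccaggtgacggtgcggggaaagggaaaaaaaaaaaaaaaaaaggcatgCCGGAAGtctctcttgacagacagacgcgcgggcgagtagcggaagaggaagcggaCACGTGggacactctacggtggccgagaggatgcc
The POLR2A window held 2 GC-boxes, the POLR1C window 3 ETS-type matches, 2 of them overlapping on opposite strands, and 1 GC-box, and the POLR3A window 1 ETS-type match and 1 E-box. Of the 34 members, 24 had an entry in the promoter table, and 1 window, from 250 bases before to 50 bases after the first start listed, was searched for each gene. The ETS-type motif was present in 37.5% of these and in 10.7% of all 27305 promoters. Among promoters of genes tested here it was present in 17.4%. The GC-box was found in 66.7% of the member promoters, 44.6% of all promoters and 66.3% of those of tested genes. The E-box was found in 16.7%, 7.43% and 9.55%, and TATAAA in 4.17%, 12% and 6.55%, in the same order. The ETS-type motif was in 2 of 5 promoters of members that fell, 2 of 3 of those that rose and 5 of 16 of those not called. The GC-box was in 1 of 5, 3 of 3 and 12 of 16 of these, and with so few promoters nothing is drawn from either split. A match is a description of the sequence and shows no binding.

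All 34 members passed the filter on low counts. Of these, 11 (32.4%) were called, 5 lower and 6 higher in shWDR5. Over all 16117 genes tested 56.5% were called, 29.9% lower and 26.6% higher, so the members were called in a smaller share than genes at large. Their median absolute log2 fold change was 0.13, against 0.31 over all genes tested, while the median SE was 0.0728 for the members and 0.0874 for all genes. The signed median was 0.04 for the members and -0.01 for all genes. The 2 groups of libraries did not overlap for 19 members, against 62.3% of all genes. With the thresholds used in the study (absolute log2 fold change of at least 0.6 and over 0.5 RPKM, beside the adjusted p), 0 members were called, against 18.4% of all genes. POLR2A lay just under that fold threshold at 0.58 and reached 0.60 with RLE scaling, with DESeq2, with a filter of 1 CPM in 3 libraries and without shLuc replicate 1, and 0.63 without shWDR5 replicate 2, while POLR1C reached 0.63 without shLuc replicate 1. Of the 23 members not called, 21 had a 95% interval of the log2 fold change that lay within 0.5 of 0. Most called members also changed by less than 0.5, so this margin does not show that the others were unchanged.

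**Figure D1:**
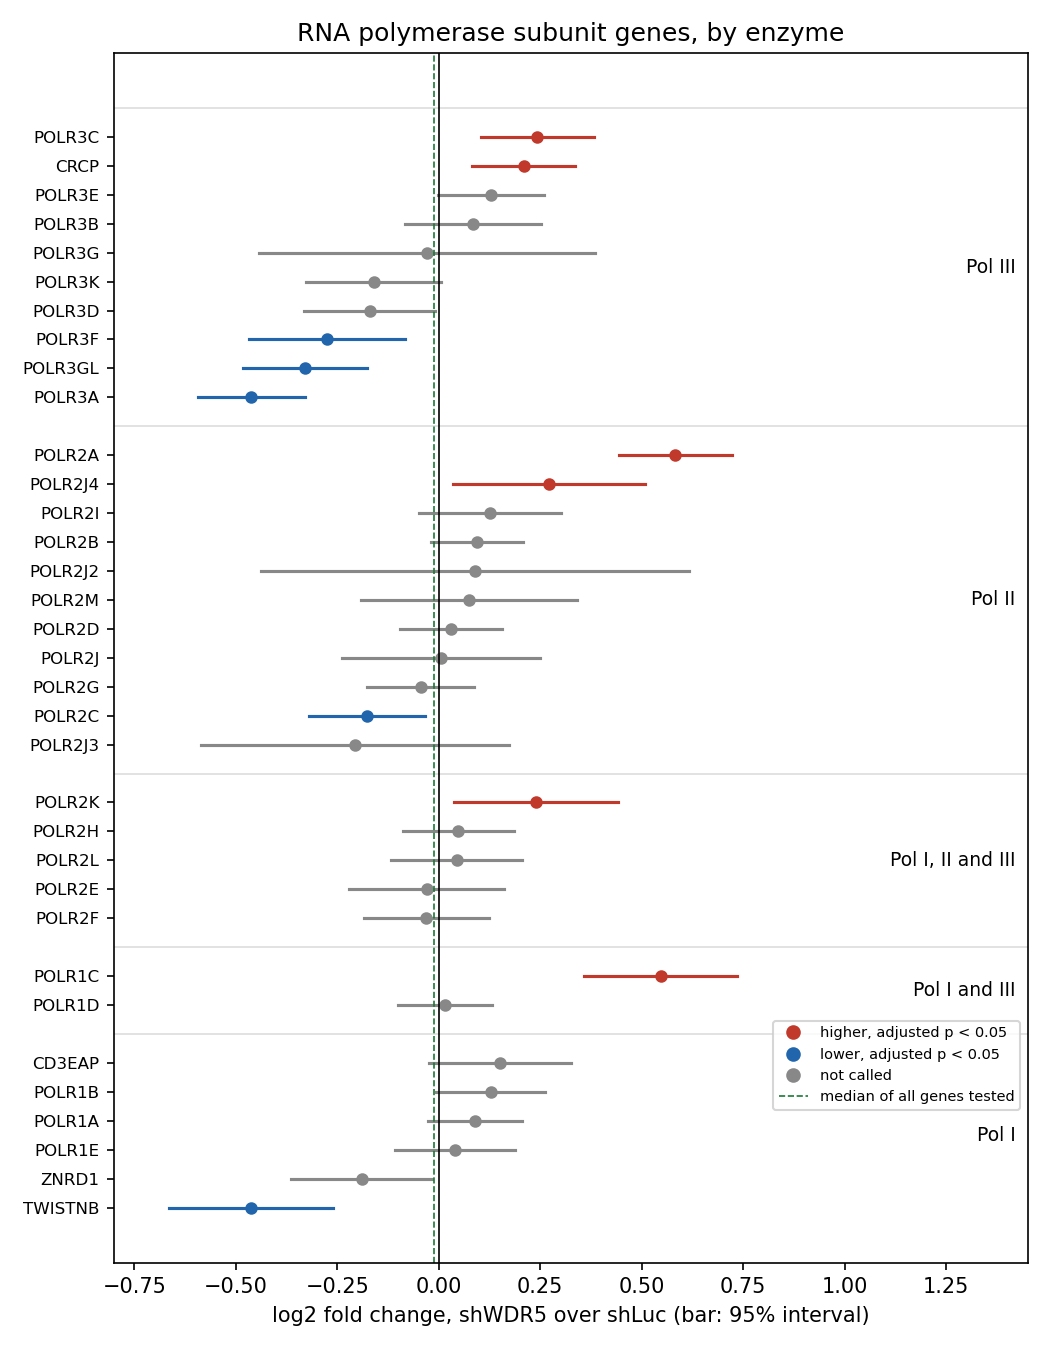
Log2 fold change of shWDR5 over shLuc for each of 34 subunit genes, with 95% intervals, grouped by polymerase and coloured by call. The intervals of POLR2A and POLR1C lie highest, those of TWISTNB and POLR3A lowest, and most others cross or lie near 0.

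In the Pol I group only TWISTNB was called, 1 of 6 genes (16.7%, against 56.5% of all genes). It encodes RPA43, the stalk subunit that contacts the initiation factor RRN3. TWISTNB (hg19 chr7:19735085-19748660, minus strand) was read at 7.11, 8.46 and 8.72 RPKM in shLuc and at 5.40, 5.89 and 6.30 RPKM in shWDR5. Every shWDR5 library lay below every shLuc library, and the mean fell from 8.09 ± 0.863 to 5.86 ± 0.450 RPKM (SD, n = 3). The log2 fold change was -0.46 (SE 0.0907, adjusted p = 0.00142, edgeR).

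The catalytic subunits of Pol I were not called. POLR1A, the largest subunit, was read at 14.0, 14.1 and 14.2 RPKM in shLuc and at 15.5, 14.6 and 14.8 RPKM in shWDR5, a log2 fold change of 0.09 (95% interval -0.03 to 0.20, adjusted p = 0.170). POLR1B, the second largest, was read at 9.46, 10.2 and 10.3 RPKM in shLuc and at 10.9, 11.4 and 10.5 RPKM in shWDR5, a log2 fold change of 0.13 (95% interval -0.01 to 0.26, adjusted p = 0.0942). For both genes the groups did not overlap, but the difference was small. ZNRD1 encodes RPA12, which takes part in transcript cleavage and proofreading, and its log2 fold change was -0.19 (adjusted p = 0.0594). It was called with library size alone (adjusted p = 0.0187) and, only just, without shWDR5 replicate 1. CD3EAP and POLR1E encode the RPA34 and RPA49 pair, a dimer related to Pol II initiation factors. Their log2 fold changes were 0.15 (adjusted p = 0.131) and 0.04 (adjusted p = 0.635). Of the CD3EAP exon bases, 48.4% overlap those of ERCC1 on the opposite strand, and the kit named in the labels does not mark strand, so reads of these 2 genes could not be told apart there. The group's median log2 fold change was 0.06, and the geometric mean of its 6 levels was 10.3 ± 0.169 RPKM in shLuc and 9.98 ± 0.254 RPKM in shWDR5 (SD, n = 3).

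POLR1C and POLR1D encode AC40 and AC19, which form the assembly platform of both Pol I and Pol III and are known from Treacher Collins syndrome, a craniofacial disorder. POLR1C (chr6:43484777-43489246, plus strand) was read at 15.4, 12.8 and 13.9 RPKM in shLuc and at 22.1, 20.3 and 19.2 RPKM in shWDR5. It rose by 46% without overlap of the groups, a log2 fold change of 0.55 (SE 0.0852, adjusted p = 3.18e-04, edgeR). Its dimer partner POLR1D was read at 30.2, 29.3 and 30.6 RPKM in shLuc and at 30.9, 30.6 and 29.6 RPKM in shWDR5, with a log2 fold change of 0.02 (95% interval -0.10 to 0.13, adjusted p = 0.816). The ratio of POLR1C to POLR1D within a library was 0.510, 0.437 and 0.455 in shLuc and 0.714, 0.664 and 0.650 in shWDR5. This ratio and the others below, apart from that of POLR3G to POLR3GL, were chosen after the values had been seen and are given without a test.

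Of the 5 subunits common to the 3 enzymes, only POLR2K was called (20%, against 56.5% of all genes). POLR2K encodes RPB12, a small zinc-binding subunit, and was read at 19.6, 18.0 and 23.2 RPKM in shLuc and at 22.9, 24.6 and 24.1 RPKM in shWDR5. The groups overlapped, and the log2 fold change of 0.24 (SE 0.0914, adjusted p = 0.0453) lost its call without shLuc replicate 1 (adjusted p = 0.0881), shLuc replicate 2 (0.203), shWDR5 replicate 2 (0.133) or shWDR5 replicate 3 (0.0957), and with scaling by library size alone (0.129). POLR2E (RPB5), POLR2F (RPB6), POLR2H (RPB8) and POLR2L (RPB10) had log2 fold changes of -0.03, -0.03, 0.05 and 0.04, with adjusted p from 0.534 to 0.793. POLR2L was the highest of the 34 members per length, at 104 ± 10.4 RPKM in shLuc and 107 ± 2.55 RPKM in shWDR5 (SD, n = 3). Of the POLR2E exon bases, 43.7% overlap HMHA1 on the opposite strand, a gene read at 1.76 RPKM in shLuc against 35.5 RPKM for POLR2E.

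Of the 11 genes of the Pol II group, 3 (27.3%, against 56.5% of all genes) were called. POLR2A and the pseudogene POLR2J4 were higher, and POLR2C was lower. In Pol II the largest subunit stood apart from the rest of the enzyme. POLR2A encodes RPB1, which carries the active site with RPB2 and bears the heptad repeats of the C-terminal domain that are phosphorylated through the transcription cycle. It was read at 32.9, 33.7 and 31.2 RPKM in shLuc and at 52.2, 45.4 and 48.8 RPKM in shWDR5. All shWDR5 libraries lay above all shLuc libraries, and POLR2A (chr17:7387698-7417935, plus strand) rose 1.5-fold, a log2 fold change of 0.58 (SE 0.0626, adjusted p = 2.54e-05, edgeR). POLR2B, which encodes RPB2, was read at 36.6, 36.1 and 38.5 RPKM in shLuc and at 39.0, 40.2 and 39.5 RPKM in shWDR5, a log2 fold change of 0.09 (95% interval -0.02 to 0.21, adjusted p = 0.142). The ratio of POLR2A to POLR2B was 0.900, 0.932 and 0.808 in shLuc and 1.34, 1.13 and 1.24 in shWDR5. Among the 11 genes of the Pol II group, without the subunits shared with the other enzymes, POLR2A thus had the third highest mean level per length in shLuc and the highest in shWDR5.

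POLR2C encodes RPB3, the assembly subunit that corresponds to AC40, and moved the other way from POLR1C. It was read at 31.5, 29.4 and 29.4 RPKM in shLuc and at 27.8, 27.3 and 24.8 RPKM in shWDR5, a log2 fold change of -0.18 (SE 0.0644, adjusted p = 0.0370). The call was lost without shLuc replicate 1 (adjusted p = 0.139), shWDR5 replicate 2 (0.0685) or shWDR5 replicate 3 (0.147), with RLE scaling (0.0586), with DESeq2 (0.0800) and with a filter of 1 CPM in 3 libraries (0.0535). The stalk subunits POLR2D (RPB4) and POLR2G (RPB7) had log2 fold changes of 0.03 and -0.04, and POLR2I (RPB9, proofreading) 0.13, none of them called. Of the POLR2I exon bases, 36.6% overlap TBCB on the opposite strand, whose log2 fold change was 0.55 (adjusted p = 1.19e-04).

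POLR2J encodes RPB11, the partner of RPB3, and has copies on chromosome 7 that share part of its transcript sequence. POLR2J was read at 12.6, 11.8 and 11.7 RPKM in shLuc and at 14.0, 12.1 and 10.1 RPKM in shWDR5, so the shWDR5 libraries enclosed the shLuc libraries and the log2 fold change was 0.01 (95% interval -0.24 to 0.25). The copies were rare. POLR2J2 was read at 0.234, 0.221 and 0.274 RPKM in shLuc and at 0.293, 0.204 and 0.289 RPKM in shWDR5, from 138 reads over the 6 libraries. POLR2J3 was read at 0.554, 0.629 and 0.561 RPKM in shLuc and at 0.527, 0.440 and 0.551 RPKM in shWDR5, from 250 reads. Neither was called. POLR2J4 was read at 0.435, 0.416 and 0.400 RPKM in shLuc and at 0.524, 0.465 and 0.528 RPKM in shWDR5, from 836 reads, and its log2 fold change of 0.27 (SE 0.107) had an adjusted p of 0.04998. That call was lost without any 1 of 5 of the 6 libraries, all but shWDR5 replicate 2 (adjusted p from 0.0519 to 0.138), with scaling by library size alone (0.102), with DESeq2 (0.132) and with no filter (0.0758). Of the 50-base windows of the transcripts, 92.4% in POLR2J2, 36.7% in POLR2J, 23% in POLR2J3 and 14% in POLR2J4 also occurred in another copy, so the split of reads among these 4 genes is uncertain. Exon bases of POLR2J2 also overlap UPK3BL on the same strand (59.4%). Those of POLR2J4 overlap UBE2D4 on the opposite strand (10.1%), whose log2 fold change was 0.45 (adjusted p = 0.00169, edgeR). POLR2M, which encodes the Pol II-associated subunit Gdown1, had a log2 fold change of 0.08 (adjusted p = 0.623). Of its exon bases, 89.9% lie in GCOM1 on the same strand, so its level is uncertain as well. GCOM1 itself had a log2 fold change of -2.29 (adjusted p = 1.92e-06, edgeR).

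**Figure D2:**
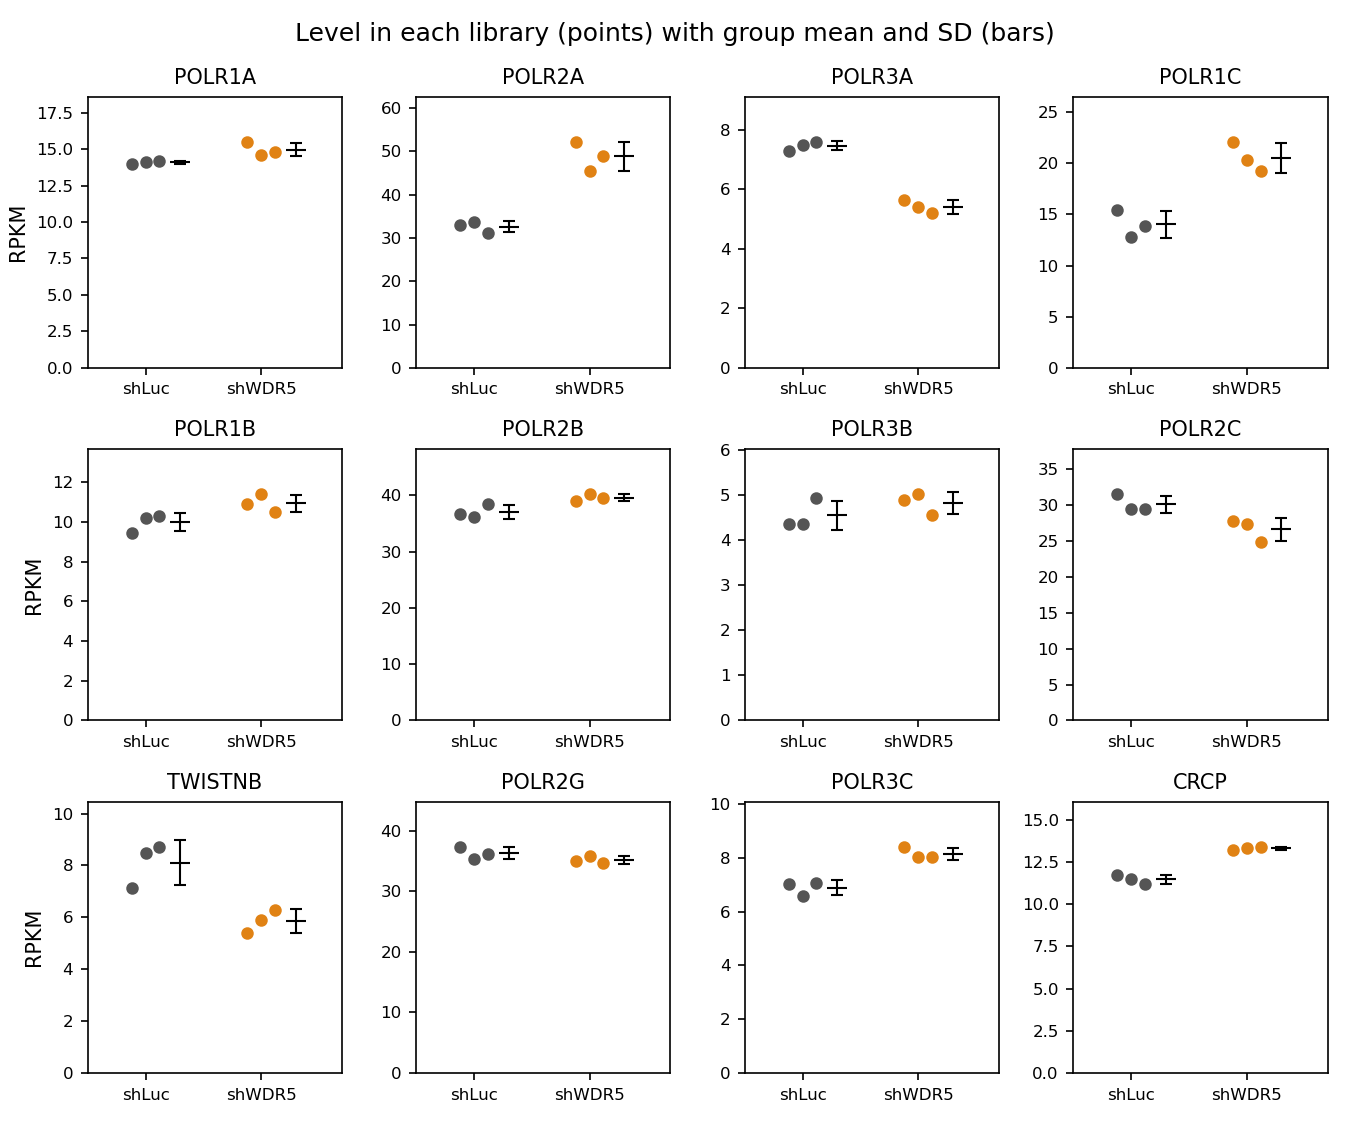
RPKM in each library (points) with the group mean and SD (bars) for 12 subunit genes, axes starting at 0. POLR2A, POLR1C, POLR3C and CRCP lie higher in all 3 shWDR5 libraries, and POLR3A, TWISTNB and POLR2C lower. POLR1A, POLR1B and POLR2B also lie higher in all 3, by less, and were not called.

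Pol III had the largest number of called subunits, 5 of 10 (50%, against 56.5% of all genes), with 3 lower and 2 higher. The group's median log2 fold change was -0.09, and the geometric mean of its 10 levels was 8.96 ± 0.186 RPKM in shLuc and 8.50 ± 0.103 RPKM in shWDR5 (SD, n = 3); the called subunits moved in both directions. POLR3A encodes RPC1, the largest and catalytic subunit. It was read at 7.29, 7.47 and 7.59 RPKM in shLuc and at 5.64, 5.39 and 5.19 RPKM in shWDR5. POLR3A (chr10:79734907-79789298, minus strand) fell in every shWDR5 library relative to every shLuc library, a log2 fold change of -0.46 (SE 0.0591, adjusted p = 8.30e-05, edgeR). POLR3B, the second largest and catalytic subunit RPC2, was read at 4.36, 4.36 and 4.92 RPKM in shLuc and at 4.89, 5.01 and 4.54 RPKM in shWDR5. Its groups overlapped, and the log2 fold change was 0.08 (95% interval -0.08 to 0.25, adjusted p = 0.376). The ratio of POLR3A to POLR3B was 1.67, 1.71 and 1.54 in shLuc and 1.15, 1.08 and 1.14 in shWDR5.

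CRCP encodes RPC9, a stalk subunit, and was read at 11.7, 11.5 and 11.2 RPKM in shLuc and at 13.2, 13.3 and 13.4 RPKM in shWDR5, a log2 fold change of 0.21 (SE 0.0569, adjusted p = 0.00952). All shWDR5 libraries lay above all shLuc libraries. Among the stalk genes of the 3 enzymes described here, TWISTNB was lower, POLR2D and POLR2G were not called, and CRCP was higher.

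RPC3, RPC6 and RPC7 form a trimer specific to Pol III that takes part in initiation. POLR3C (RPC3) was read at 7.03, 6.56 and 7.07 RPKM in shLuc and at 8.41, 8.02 and 8.01 RPKM in shWDR5, a log2 fold change of 0.24 (SE 0.0626, adjusted p = 0.00716). POLR3F (RPC6) was read at 4.41, 5.15 and 5.16 RPKM in shLuc and at 3.82, 4.17 and 4.14 RPKM in shWDR5, a log2 fold change of -0.28 (SE 0.0863, adjusted p = 0.0192). Neither gene's groups overlapped, and the 2 members of the trimer moved in opposite directions. The POLR3F call was lost without shLuc replicate 2 (adjusted p = 0.0683), shLuc replicate 3 (0.0720) or shWDR5 replicate 1 (0.0577).

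RPC7 exists in alternative forms, RPC7 alpha encoded by POLR3G and RPC7 beta encoded by POLR3GL. POLR3G is known from pluripotent and proliferating cells, and POLR3GL from a wide range of differentiated tissues. POLR3G was read at 4.48, 7.36 and 5.66 RPKM in shLuc and at 4.40, 5.73 and 6.97 RPKM in shWDR5. The groups overlapped fully, and the log2 fold change was -0.03 (SE 0.186, 95% interval -0.44 to 0.38, adjusted p = 0.907), so changes within that interval remained possible. POLR3GL (chr1:145456236-145470387, minus strand) was read at 12.7, 12.3 and 12.5 RPKM in shLuc and at 10.4, 10.0 and 9.50 RPKM in shWDR5. It fell without overlap, a log2 fold change of -0.33 (SE 0.0689, adjusted p = 0.00212, edgeR). The ratio of POLR3G to POLR3GL was 0.352, 0.597 and 0.452 in shLuc and 0.424, 0.571 and 0.733 in shWDR5. Its log2 value differed by 0.30 between the groups (-1.13 ± 0.380 in shLuc and -0.83 ± 0.395 in shWDR5, SD, n = 3; two-sided exact permutation test, p = 0.5, where the smallest p that 3 against 3 libraries allow is 0.1). POLR3GL transcripts exceeded those of POLR3G per length in all 6 libraries. This order rests on the deposited lengths of 3285 bases for POLR3G and 1165 bases for POLR3GL. In reads over the 6 libraries POLR3G had more, 5192 against 3604. No 50-base window of the POLR3G transcripts occurred in those of POLR3GL.

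**Figure D3:**
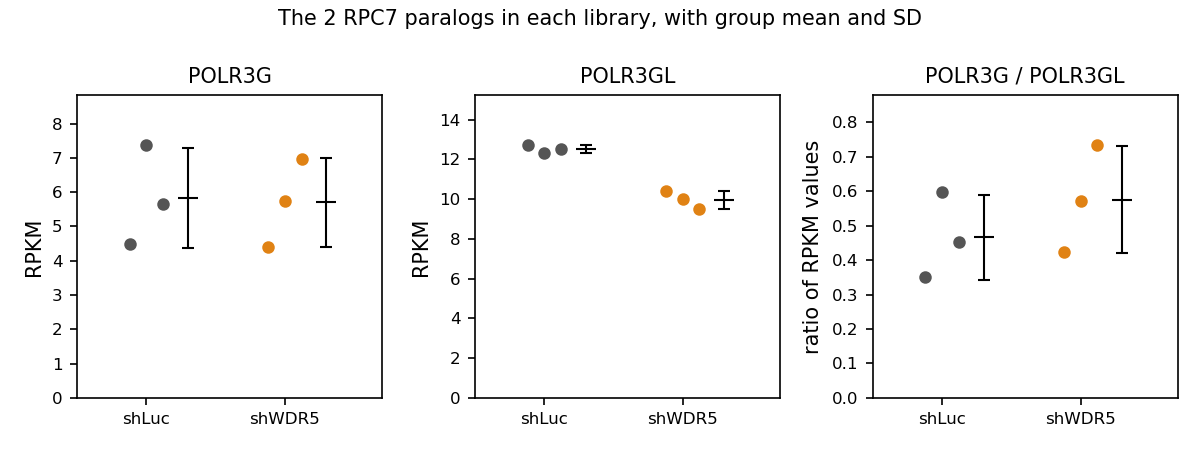
RPKM of POLR3G and POLR3GL and their ratio in each library (points), with group mean and SD (bars), axes starting at 0. POLR3GL is lower in all 3 shWDR5 libraries (9.50 to 10.4 against 12.3 to 12.7 RPKM), while POLR3G and the ratio overlap between groups.

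POLR3D (RPC4) and POLR3E (RPC5), a dimer that takes part in initiation and termination, had log2 fold changes of -0.17 (adjusted p = 0.0687) and 0.13 (adjusted p = 0.0851). POLR3K (RPC10), which takes part in RNA cleavage and termination, had -0.16 (adjusted p = 0.0914). None was called. POLR3D was called with library size alone (adjusted p = 0.0215) and without shLuc replicate 2 (0.0289), POLR3K with library size alone (0.0277) and POLR3E with a filter of 1 CPM in 3 libraries (0.0490). For each of these 3 genes the libraries of the groups did not overlap, as for 62.3% of all genes. Per length, POLR3K was the highest Pol III-specific subunit in both groups, at 22.2 ± 1.04 RPKM in shLuc and 19.8 ± 1.29 RPKM in shWDR5 (SD, n = 3). Among the 10, POLR3A went from the sixth place to the eighth and POLR3GL from the third to the fifth, while CRCP went from the fourth to the second.

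Set beside each other, the largest subunits of the 3 enzymes moved differently: POLR1A was not called, POLR2A rose and POLR3A fell. The ratio of POLR2A to POLR3A within a library was 4.51, 4.51 and 4.11 in shLuc and 9.25, 8.42 and 9.41 in shWDR5. The ratio of POLR2A to POLR1A was 2.35, 2.39 and 2.19 in shLuc and 3.36, 3.10 and 3.30 in shWDR5. That of POLR1A to POLR3A was 1.92, 1.88 and 1.87 in shLuc and 2.75, 2.71 and 2.85 in shWDR5. None of the second largest subunits, POLR1B, POLR2B and POLR3B, was called. Ratios within a library do not depend on the scaling of that library.

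**Figure D4:**
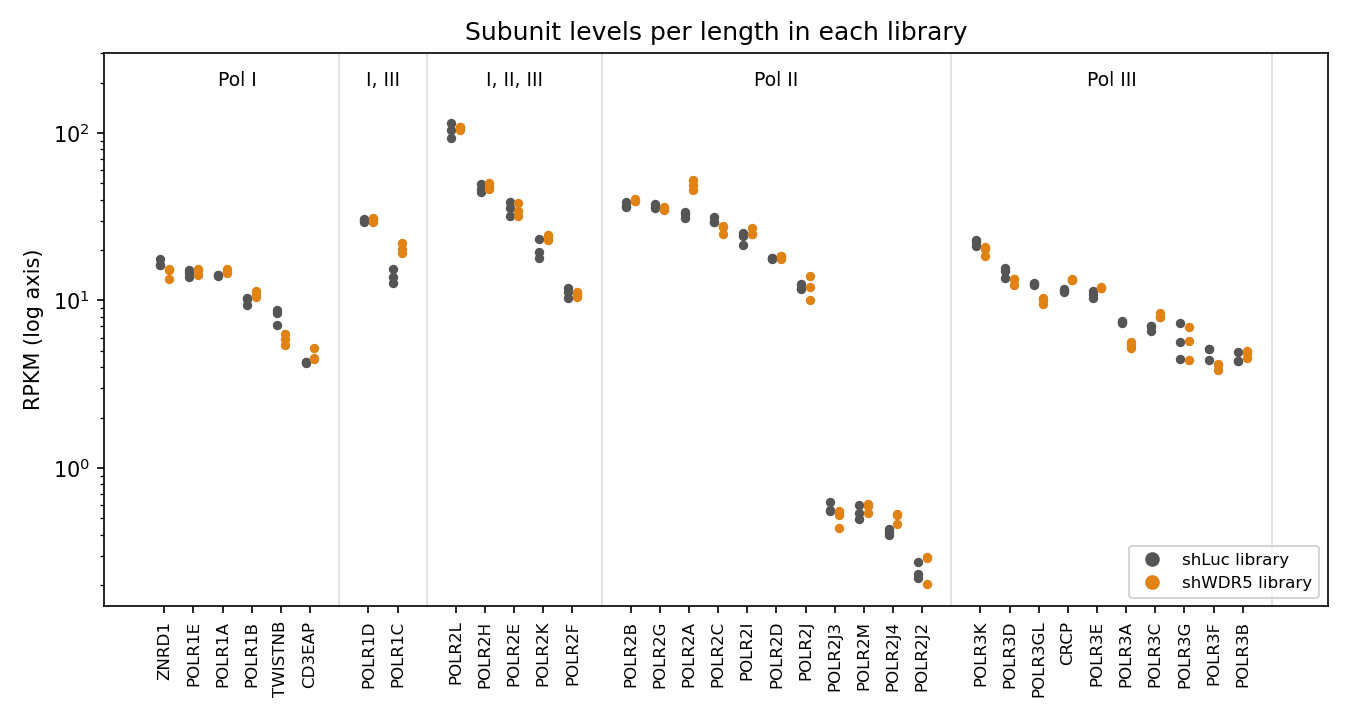
RPKM on a log axis for the 34 subunit genes in each library (points), ordered within each group by the shLuc mean. Most levels lie within a range of 4 to 50 RPKM, the POLR2J copies and POLR2M lie under 1 RPKM, and POLR2A moves from below POLR2B to above it in shWDR5.

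The members had higher levels than genes at large, with a median of 13.1 RPKM against 5.36 RPKM over all genes tested, and 30 of the 34 exceeded 1 RPKM on average. In shLuc, POLR2A (31.2 to 33.7 RPKM) lay below POLR2B (36.1 to 38.5 RPKM) in every library, and in shWDR5 it lay above it in every library. Among the 6 genes specific to Pol I, ZNRD1 had the highest mean in shLuc and POLR1A in shWDR5, but in shWDR5 the ranges of ZNRD1 (13.5 to 15.4 RPKM) and POLR1A (14.6 to 15.5 RPKM) overlapped. The geometric mean of the 11 Pol II levels was 5.71 ± 0.128 RPKM in shLuc and 6.04 ± 0.287 RPKM in shWDR5 (SD, n = 3). It takes in POLR2J2, POLR2J3, POLR2J4 and POLR2M, whose shLuc means were 0.243 to 0.581 RPKM. These genes pull the mean down, so it does not rank Pol II against the other groups. The geometric mean of the 5 subunits common to all enzymes was 32.9 ± 2.06 and 34.2 ± 0.847 RPKM. That of POLR1C and POLR1D was 20.5 ± 1.12 and 25.0 ± 1.15 RPKM (shLuc and shWDR5, SD, n = 3).

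Factors that recruit, regulate or assemble the polymerases were taken as 6 lists of 79 genes, all of which passed the filter on low counts. Of these, 41 (51.9%) were called, 25 lower and 16 higher, a share near the 56.5% of all genes tested. The factors of Pol I initiation and termination gave 1 call in 8, TAF1A, a subunit of the promoter selectivity factor SL1, with a log2 fold change of -0.68 (adjusted p = 5.12e-05, edgeR). RRN3, which joins Pol I to its promoter factors and has near-identical pseudogene copies, had 0.18 (adjusted p = 0.0529), and UBTF, the activator that coats ribosomal DNA, had 0.06 (adjusted p = 0.352). The list's median log2 fold change was 0.03.

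Of the 17 factors of Pol III initiation and control, 8 (47.1%) were called, 4 lower and 4 higher, against 56.5% of all genes. SNAPC5 and SNAPC4, subunits of the complex that binds small nuclear RNA promoters, moved in opposite directions, with log2 fold changes of -0.98 (adjusted p = 2.61e-05) and 0.70 (adjusted p = 7.54e-06). BRF2, the TFIIB-like factor of the same promoter type, rose by 0.53 on the log2 scale (adjusted p = 4.10e-04). BRF1, its counterpart at transfer RNA genes, had 0.22 (adjusted p = 0.0613), and MAF1, the repressor of Pol III, had 0.15 (adjusted p = 0.106). GTF3C3 and GTF3C5, subunits of TFIIIC, and BDP1, a subunit of TFIIIB, were the other factors that fell. GTF3C2, also of TFIIIC, and GTF3A, the 5S gene factor TFIIIA, rose by 0.16 (adjusted p = 0.0228) and 0.28 (adjusted p = 0.00158) on the log2 scale. The list's median was -0.01.

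Of the 18 general factors of Pol II, 11 (61.1%) were called, 8 lower and 3 higher, again near the 56.5% of all genes. CCNH and MNAT1 encode cyclin H and MAT1, the partners of the kinase CDK7 in TFIIH, and fell most. CCNH was read at 19.0, 18.3 and 19.6 RPKM in shLuc and at 8.24, 9.35 and 8.86 RPKM in shWDR5, a log2 fold change of -1.10 (adjusted p = 8.98e-07, edgeR). MNAT1 was read at 33.0, 35.4 and 38.4 RPKM in shLuc and at 19.6, 22.1 and 20.4 RPKM in shWDR5, a log2 fold change of -0.78 (adjusted p = 1.23e-05). CDK7 was not called, at -0.07 (adjusted p = 0.432). GTF2H3, a core TFIIH subunit, fell by 0.53 on the log2 scale (adjusted p = 1.07e-04), as did ERCC2, GTF2H4 and ERCC3 by less. Other TFIIH subunits rose, GTF2H1 by 0.37 (adjusted p = 5.30e-04) and GTF2H5 by 0.19 (adjusted p = 0.0374). TBP, the TATA-binding protein used by all 3 enzymes, had -0.14 (adjusted p = 0.109).

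Of the 20 factors of Pol II elongation and C-terminal domain modification, 12 (60%) were called, 4 lower and 8 higher, against 56.5% of all genes. The 3 with the largest absolute log2 fold change rose: CTDP1, a phosphatase of the C-terminal domain, by 0.75 on the log2 scale (adjusted p = 1.41e-05), SUPT5H, the large subunit of the pausing and elongation factor DSIF, by 0.73 (adjusted p = 3.88e-06), and CCNT2, a cyclin of the elongation kinase P-TEFb, by 0.72 (adjusted p = 2.04e-04). SUPT5H was read at 41.0, 38.1 and 37.5 RPKM in shLuc and at 67.9, 61.8 and 63.7 RPKM in shWDR5, without overlap. CCNT1, the other T-type cyclin, fell by 0.63 on the log2 scale (adjusted p = 5.43e-05), and CDK9, their kinase, rose by 0.54 (adjusted p = 3.29e-05). The list's median was 0.04.

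All called genes among the 11 factors of polymerase assembly and nuclear import were lower, 7 of 11 (63.6%). Over all genes tested, 56.5% were called in either direction and 29.9% were called lower. The lists were chosen with earlier results of these data known, so nothing is drawn from this contrast. RPAP1, a Pol II-associated assembly factor, was read at 16.2, 16.4 and 13.9 RPKM in shLuc and at 6.95, 6.57 and 6.47 RPKM in shWDR5, a log2 fold change of -1.22 (adjusted p = 6.80e-07, edgeR). GPN3, a GTPase needed for nuclear entry of Pol II, was read at 9.89, 11.1 and 11.0 RPKM in shLuc and at 5.79, 7.04 and 6.69 RPKM in shWDR5, a log2 fold change of -0.71 (adjusted p = 7.16e-05). PIH1D1, a subunit of the R2TP co-chaperone that builds polymerases, had -0.39 (adjusted p = 5.34e-04). RPAP3, GPN1, RUVBL1 and RUVBL2 were the other 4 that fell, with log2 fold changes from -0.32 to -0.17. RPAP2, GPN2, URI1 and SLC7A6OS were not called. The list's median was -0.22.

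The mitochondrial polymerase is a separate enzyme and served as a comparison. Its catalytic subunit POLRMT was read at 13.9, 13.7 and 12.7 RPKM in shLuc and at 14.0, 13.4 and 12.9 RPKM in shWDR5, a log2 fold change of 0.00 (adjusted p = 0.983). Of its 4 factors, TFAM, which packages mitochondrial DNA, had -0.34 (adjusted p = 0.0392) with overlapping groups, and TFB2M, its initiation factor, rose by 0.29 on the log2 scale (adjusted p = 0.00269).

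**Figure D5:**
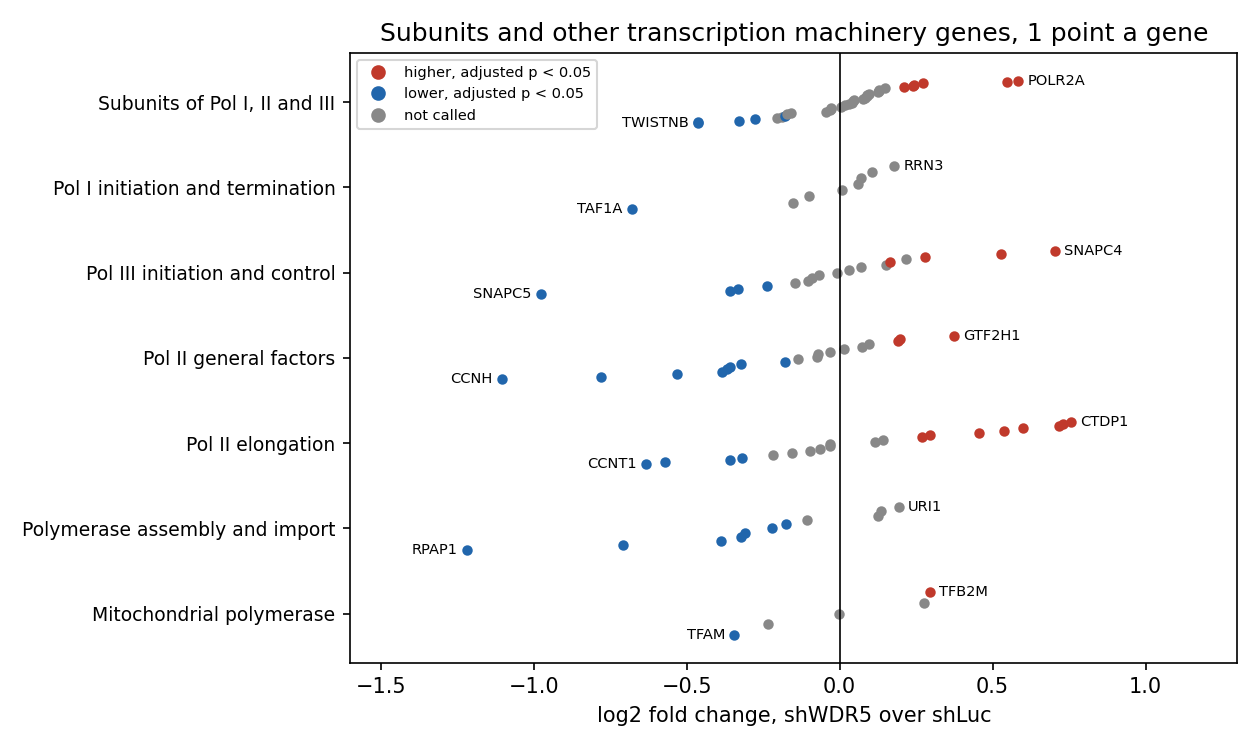
Log2 fold change of shWDR5 over shLuc for the 79 factor genes by list beside the 34 subunit genes (points), coloured by call. The assembly list has called genes only below 0, and the subunit genes spread from -0.46 to 0.58.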

How the data were processed

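Poly-A RNA of MCF10DCIS.com cells was sequenced by the authors as 3 shLuc and 3 shWDR5 libraries. The submitters' processing notes name TopHat2 2.1.0, featureCounts, edgeR 3.2.2 and the hg19 (GRCh37) build. The deposited table holds whole-number counts per gene with a gene length, not normalized; the counting of strand and of overlapping or multiply mapped reads is not given in the sources used here. A table of the authors' own fold changes and p-values was deposited as well and was not used.

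Groups were taken from the sample titles. Counts were fitted in edgeR 4.0.16 (R 4.3.3, limma 3.58.1) with TMM scaling, filterByExpr (minimum count 10) and the two-sided quasi-likelihood test, with Benjamini-Hochberg adjustment over the 16117 genes tested. Intervals are 95%, from the unshrunken coefficient and its SE. RPKM used the TMM-scaled library sizes and the deposited lengths. The fit was also run on simulated counts in which few genes were changed. That setting is unlike these data, and nothing is drawn from it. Alternatives were RLE scaling, library size alone, DESeq2 1.42.0, edgeR's exact test, other filters, the replicate number as a block, each library left out, and the study's fold change and RPKM thresholds. Total counts of 38218108 to 57640167 per library set the precision of rare transcripts such as POLR2J2. The chi-square per gene between libraries of 1 group was at least 7.13, so none was a plain copy or resequencing of another. This value does not show that the libraries came from separate cultures.

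Every member described is named; 1 further gene that meets the rule is not reported here. Values by library are given for the 2 largest subunits of each enzyme, the RPC7 and POLR2J paralogs and up to 4 called members of each group with the largest absolute log2 fold change, and, added after values were seen, POLR1D, POLR3C and CRCP. In each factor list up to 3 called genes are named by the same rule, with RRN3, UBTF, BRF1, MAF1, TBP and POLRMT. Further factors were named after their values were seen. Members and lists were chosen with earlier results of these data known. Promoters are those of RefSeq on GRCh38.p14, and transcripts those of GENCODE release 29, used for sequence only. A comparison of protein sequences was planned and not made, and proteins were not analysed here.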

Additional observations from a re-analysis of the deposited data

How the results depend on the processing

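Of the 11 called members, 7 (TWISTNB, POLR1C, POLR2A, POLR3A, POLR3C, POLR3GL and CRCP) kept their call and direction under all 13 alternatives of test, scaling, filter, block and left-out library. The calls of POLR2K, POLR2C, POLR2J4 and POLR3F were lost under at least 1. Counts of called members moved as follows. With library size alone, 8 were lower, 2 were called in Pol I and 0 among the subunits common to all enzymes, and the members' median log2 fold change was -0.0152. The median of all genes was then -0.07, and 57.1% of all genes were called, with 5498 of 16117 lower. DESeq2 called 1 in Pol II, and 52.6% of all genes. With the study's thresholds 2962 genes and 11 factor genes were called, 0 members were higher and 0 were lower, with 0 in Pol I, 0 in Pol I and III, 0 among the common subunits, 0 in Pol II and 0 in Pol III.

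With a library left out, Pol I had 1 to 2 calls, the common subunits 0 to 1, Pol II 1 to 2, Pol III 4 to 5, the members 4 to 5 lower and 4 to 5 higher, and the log2 ratio of POLR3G to POLR3GL differed by 0.11 to 0.50. Of all genes tested, 49.8% to 54.2% were called with a library left out. Signs turned in 10 members, none of them called. With library size alone the log2 fold changes were -0.0171 for POLR1E, -0.0414 for POLR1D, -0.0092 for POLR2H, -0.0132 for POLR2L, -0.0264 for POLR2D and -0.0523 for POLR2J, which was -0.0046 with no filter. With a library left out they ran from -0.0041 to 0.0866 for POLR1E, -0.0117 to 0.0352 for POLR1D, -0.1055 to 0.0547 for POLR2E, -0.0937 to 0.037 for POLR2F, -0.0379 to 0.1303 for POLR2L, -0.1119 to 0.116 for POLR2J, -0.0031 to 0.2598 for POLR2J2 and -0.1964 to 0.1637 for POLR3G. The causes were not tested.

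With the replicate number as a block, 8 members were lower and 8 higher, 3 were called in Pol I and 8 in Pol III, and 10412 genes were called (64.6%). POLR1B, ZNRD1, POLR3D, POLR3E and POLR3K gained a call under the block. Deviations of same-numbered libraries correlated at 0.372, 0.036 and 0.116, and shLuc replicate 2 correlated best with shWDR5 replicate 3, so the numbers were not taken to pair the libraries. POLR2J2 and POLR2J3 had no value under the filter of 1 CPM. Depth limits POLR2J2, POLR2J3, POLR2J4 and POLR2M, read 138, 250, 836 and 674 times in all.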
